A study of Mus musculus with 1920 samples.

Results

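The nuclear-encoded genes of the mitochondrial respiratory chain and ATP synthase were examined in single intestinal stem cells (ISCs) of young and aged mice. Protein-coding genes were taken by symbol (the Nduf, Sdh, Uqcr, Cyc1, Cox4 to Cox8 and Atp5 families), and a gene was a member if it had a read in at least 10% of the cells with at least 1000 detected genes. Of 86 matching genes among 55471 in the table, 79 were members: 36 of complex I, 4 of complex II, 9 of complex III, 13 of complex IV and 17 of complex V. The cells were sorted as Lgr5high from small intestinal crypts, and come from 3 young and 4 aged mice. All mice of both ages carried the allele that the labels write as B6.129P2-Lgr5tm1(cre/ERT2)Cle/J. This allele drives green fluorescent protein and an inducible Cre from the Lgr5 locus, so the sort reads Lgr5 promoter activity. How old the sequenced mice were is stated in no source used here, and the labels name no treatment. Each cell was sorted into a well, its polyadenylated RNA was copied and amplified as full-length cDNA, and the deposited values are read counts per gene without molecular identifiers, so any limit derived from them describes counting error alone.

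Complex I takes electrons from NADH and complex II takes them from succinate. Both pass them through ubiquinone to complex III, from there through cytochrome c to complex IV and to oxygen, and the proton gradient that complexes I, III and IV build drives complex V, the ATP synthase. Complexes I, III, IV and V also hold subunits made from mitochondrial DNA, which were not members, whereas complex II is encoded in the nucleus alone. At the crypt base, Lgr5 ISCs lie between Paneth cells, and enterocytes and goblet cells are among their differentiated offspring.

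Of 1920 cells, 1836 had at least 1000 detected genes, between 160 and 376 per mouse, with 49447464 to 134408884 reads per mouse. The ISC marker list had the highest mean of 8 cell type lists in 1565 cells, between 74.0% and 93.8% of the cells of a mouse. Paneth genes led in 133 cells, enterocyte genes in 67, goblet genes in 48, tuft genes in 18, stromal genes in 3 and enteroendocrine genes in 2, and immune genes led in 0. The cell names end in a run code whose meaning is not given. Aged mouse 3 shared its code with young mouse 1, and aged mice 1 and 2 shared theirs with parts of young mouse 2. Aged mouse 3 stood apart from the other mice in the genes examined here. It had the highest level of 58 of 79 members, and the members took 3.40% of its reads, against 1.84% to 2.61% in the other 6 mice. The main counts below are given with and without it.

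The promoters of respiratory genes are known to carry sites for NRF1, a transcription factor that controls many of them. RefSeq promoter windows (GRCm38.p6, 250 bases before to 50 after the start) were matched for 64 of 79 members. The core of the NRF1 motif, spelled GCGCA, any base and GCGC, occurred on either strand in 26.1% of 69 member windows and in 4.60% of 32851 windows of all genes. CCGGAAG, an ETS motif read by Gabpa, occurred in 23.2% against 8.86%, AAGATGGCG, the YY1 motif, in 10.1% against 1.40%, and GGGCGG, the SP motif, in 37.7% against 35.7%. A match is a match of letters and was not tested as a binding site. Of the 28 members that passed a test between cell states below, 18 had a window and 6 of them held the NRF1 letters. These 6 are shown as 30 bases around a match, on the strand of the gene, with the match in capitals. They are Atp5g3 at chr2:73911295-73911324 (minus strand), Atp5h at chr11:115420041-115420070 (minus), Ndufa6 at chr15:82354249-82354278 (minus), Sdha at chr13:74350231-74350260 (minus), Sdhd at chr9:50603909-50603938 (minus) and Uqcrc1 at chr9:108936643-108936672 (plus).
Atp5g3: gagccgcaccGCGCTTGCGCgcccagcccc
Atp5h: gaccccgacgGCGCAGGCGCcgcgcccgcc
Ndufa6: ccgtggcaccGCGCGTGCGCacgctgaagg
Sdha: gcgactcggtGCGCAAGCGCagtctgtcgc
Sdhd: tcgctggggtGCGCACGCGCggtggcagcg
Uqcrc1: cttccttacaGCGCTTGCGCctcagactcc
The match lay 12 bases after the RefSeq start in Atp5g3, 5 after it in Uqcrc1 and 23 after it in Ndufa6, and 10, 79 and 141 bases before it in Sdha, Sdhd and Atp5h. The Sdha window held 3 such matches and the Uqcrc1 window 2. The stretch upstream of Cox7a1 is also printed, since Cox7a1 had the largest difference of all members between cell types. It lies at chr7:30183921-30184143 (plus strand), upstream of the RefSeq start. These 223 bases held a match to none of the 6 motifs searched, which besides those above were TGACGTCA (the CRE, in 5.80% of member windows and 1.79% of all) and TCAAGGTCA (an ERR site, in 2.90% and 0.423%). This is not particular to Cox7a1. The windows of Ndufv1, Atp5g1, Cox5b and Ndufb3, which rose in G2/M cells below, also held none of the 6. Of 64 member genes 17 held the NRF1 letters.
Cox7a1: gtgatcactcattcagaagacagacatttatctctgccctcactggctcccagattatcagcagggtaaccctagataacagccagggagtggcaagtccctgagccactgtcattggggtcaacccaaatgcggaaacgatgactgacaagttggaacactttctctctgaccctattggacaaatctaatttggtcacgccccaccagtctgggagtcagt

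Nearly all members were read in nearly all cells. Of 79 members, 76 had a read in at least 90% of cells. The 3 members closest to the 10% limit were Cox7a1 (21.2% of cells), Cox6b2 (23.9%) and Atp5s (64.1%), and the 3 matching genes closest below it were Ndufa4l2 (1.69%), Cox8b (1.03%) and Cox4i2 (0.817%). Cox6a2 (0.490%) and Cox7b2 (0.109%) were rarer still, Cox8c had a read in 0 of 1836 cells, which allows a share of up to 0.163%, and a second gene identifier of Atp5o had no read. Thus in each of the groups of tissue isoforms the broadly expressed isoform (Cox4i1, Cox6a1, Cox6b1, Cox7a2, Cox8a, Ndufa4) was read in at least 98.3% of cells, and the isoforms known from muscle, lung, testis or hypoxia in at most 23.9% or not at all. Of the 3 genes that encode the same c-ring subunit of the ATP synthase, Atp5g3 (99.2% of cells), Atp5g1 (98.5%) and Atp5g2 (93.8%) were all read widely. Uqcrh was found under its own symbol and no gene of the symbol Uqcrhl was in the table.

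Levels per length were compared as CPM (reads scaled to library size, here by the TMM method) per kilobase of the principal transcript, as mean ± SD over 7 mice. The median member stood at 203, and the medians of complexes I to V were 157, 205, 345, 269 and 232. Cox4i1, a subunit of complex IV, stood highest of all with 4497 ± 3226, followed by Atp5b, the catalytic beta subunit of the ATP synthase, with 1435 ± 243. Cox6b2 was lowest with 6.16 ± 2.55 and Atp5s, a coupling factor that is no subunit in the strict sense, had 11.9 ± 0.862. In complex I the range ran from Ndufb2 (16.3 ± 4.69) to Ndufa4 (582 ± 168), a protein now counted to complex IV. The low value of Ndufb2 is a level over a principal transcript of 4371 bases, against 610 for Ndufa4. In complex II it ran from the membrane anchor Sdhc (57.6 ± 9.23) to the iron-sulfur subunit Sdhb (228 ± 44.7), and in complex III from the Rieske protein Uqcrfs1 (153 ± 17.8) to Uqcrh (641 ± 150). The 7 nuclear core subunits of complex I, which carry its electron transfer, had a median of 186 and the 28 accessory subunits 144. The c-ring genes stood at 483 ± 78.8 for Atp5g3, 58.2 ± 17.0 for Atp5g2 and 45.0 ± 12.0 for Atp5g1. Their principal transcripts have 723, 731 and 4715 bases, so the order of the last 2 rests on length. By reads over all kept cells Atp5g1 (125628) stood above Atp5g2 (28256), and Atp5g3 had 224377. A level per length depends on the transcript chosen, and 16 members have a near-identical copy elsewhere in the genome. For 7 of them the reads on such copies came to over 10% of their own (Ndufc1, Ndufa12, Atp5g1, Cox7a2l, Atp5h, Atp5o and Ndufs3), so their levels are uncertain.

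**Figure D1:**
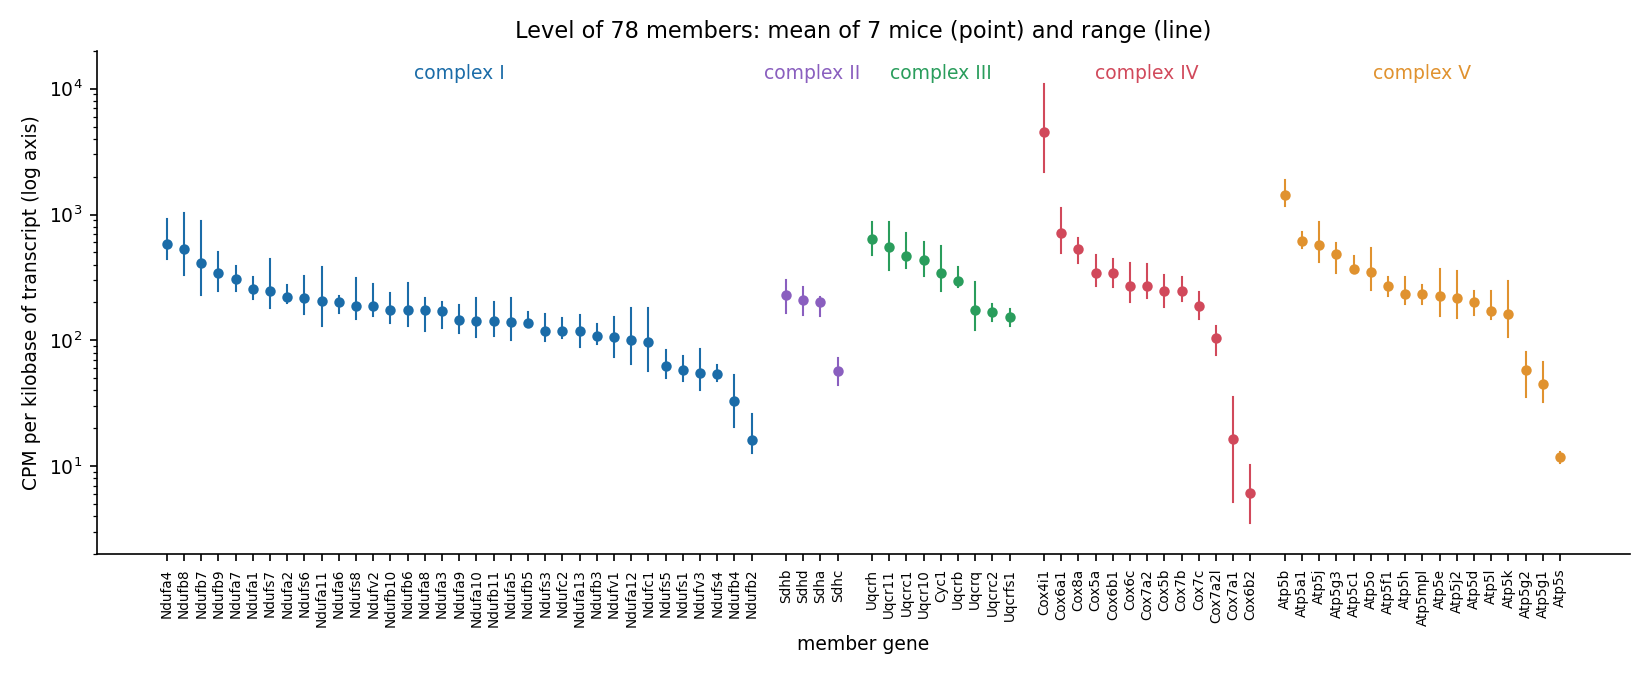
Level of single members in CPM per kilobase of transcript (log axis), grouped by complex and ordered within it. Points are means of 7 mice and lines run from the lowest to the highest mouse, and Cox4i1 stands highest (4497) with the widest range in absolute terms while Cox6b2 (6.16) and Atp5s (11.9) are lowest.

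The level of Cox4i1, the most abundant member, was 5377, 1680 and 2187 CPM in young mice 1 to 3 and 2453, 2277, 8262 and 1847 CPM in aged mice 1 to 4. Aged mouse 3 and young mouse 1, which share a run code, were the highest, and the ages overlapped. A few cells held much of the signal: 92 of 1836 cells had at least 3 times the median Cox4i1 level of their mouse, a limit chosen after the values were seen. They held 46.0% of all Cox4i1 reads and 10.3% of all reads. There were 18, 2 and 21 such cells in young mice 1 to 3 and 11, 6, 24 and 10 in aged mice 1 to 4, and they gave 30.3% of the reads of young mouse 1 and 32.8% of those of aged mouse 3. These cells had more reads than the rest (median 698983 against 301142.5) but fewer detected genes (5786 against 9465), and 64 of them had under 7000 detected genes. ISC genes led in 81 of the 92. In the 6 mice with at least 5 such cells, and leaving out Cox4i1, which chose the cells, 44 of 78 members (56.4%) were higher in them than in the rest in all 6 mice and 4 (5.13%) were lower in all 6, beside 4.57% and 24.9% of 13907 genes. The median difference was 0.69 on the log2 scale over these members and -0.50 over all genes. It was 0.91 for members with a transcript under 1000 bases and 0.38 for the longer ones, beside -0.13 and -0.54 over all genes. These values describe cells chosen by a member of the same group of genes and have no test. The largest median differences were those of the complex I accessory genes Ndufa12 (2.27), Ndufb4 (2.13), Ndufb8 (1.94) and Ndufb7 (1.94). Since these cells can set a sum over cells, the comparisons below were also made on cells with at least 7000 detected genes, an alternative added after the data were seen.

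Aged and young mice were compared on reads summed per mouse, to ask whether genes of oxidative phosphorylation differ with age in ISCs. No member passed the threshold (edgeR quasi-likelihood test, adjusted p under 0.05), nor did any of 20957 genes tested, a background of 0% (1098 genes at an unadjusted p under 0.05, and by DESeq2 117 higher and 60 lower). At an unadjusted p under 0.05 there were 2 members higher and 1 lower, and DESeq2 and limma voom each called 0 of 79 members. The median log2 fold change was 0.22, 0.23, 0.28, 0.28 and 0.25 for complexes I to V, and 0.25 over all members beside 0.01 over all genes. The mean deviation of all members from the 7-mouse mean was 0.10, -0.23 and -0.27 on the log2 scale in young mice 1 to 3 and -0.01, 0.08, 0.47 and -0.14 in aged mice 1 to 4. Young mouse 1 thus lay above aged mice 1, 2 and 4, and the ages overlapped. Without aged mouse 3 the median fell to 0.13, with 64 of 79 members above 0 beside 50.1% of all genes. Over all mice left out in turn the median of the members ran from 0.13 to 0.38.

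**Figure D2:**
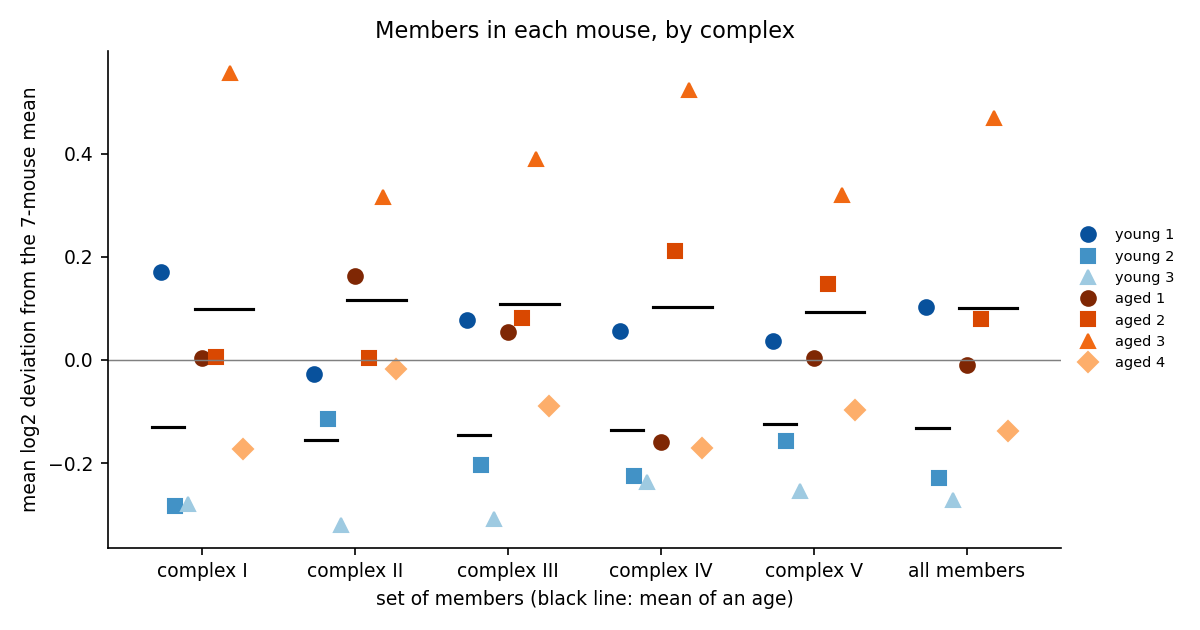
Mean log2 deviation of the members of each complex from their mean over 7 mice, with a symbol per mouse (blue, young; orange and brown, aged) and a black line at the mean of each age. Aged mouse 3 is highest in each complex (0.47 over all members), young mouse 1 (0.10) is above aged mice 1, 2 and 4 over all members, and young mice 2 and 3 lie below 0 throughout.

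The order of the mice differed between complexes. In complex II aged mouse 1 stood second (0.16) after aged mouse 3 (0.32) and no young mouse lay above 0. In complex IV aged mouse 1 stood at -0.16 and aged mouse 2 at 0.21. Within run codes that held both ages, the median over the members was 0.26 for aged mouse 1 against young mouse 2, 0.28 for aged mouse 2 against young mouse 2 and 0.37 for aged mouse 3 against young mouse 1. Over all genes the medians of these pairs were 0, -0.003 and 0. The aged mouse was the higher for 75, 76 and 76 of 79 members, and 71 members were higher in all 3 pairs and 0 lower in all 3. Young mouse 2 enters 2 of these 3 pairs, so they are not independent. Nor are the members independent of each other, since their levels moved together from cell to cell, as given below. With the run code as a block 0 members passed the adjusted threshold, and 50 of 79 members and 1743 of 24305 genes had an unadjusted p under 0.05. That fit used 8 sums, 1 more than there were mice, because young mouse 2 was split between its run codes, and its p-values treat both parts as separate.

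For 9 of 79 members (11.4%) the lowest aged mouse lay above the highest young mouse, against 5.62% of all genes whose ages did not overlap in either direction. They were Ndufs5 and the NADH-binding core subunit Ndufv1 of complex I, Sdhb of complex II, the core protein Uqcrc2 of complex III, Cox7b of complex IV and, in complex V, the alpha subunit Atp5a1, the gamma subunit Atp5c1, the delta subunit Atp5d and Atp5g3. Sdhb had 233, 223 and 187 CPM in the young mice and 284, 277, 345 and 273 CPM in the aged mice. The aged mice were all higher, with a log2 fold change of 0.46 (SE 0.16, edgeR adjusted p = 0.81). Ndufv1 had 174, 155 and 122 CPM in the young and 179, 177, 254 and 187 CPM in the aged mice. The gap between its ages was narrow, and its log2 fold change was 0.41 (SE 0.19, edgeR adjusted p = 0.97).

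Among the other core subunits the log2 fold change from young to aged was 0.23 for Ndufs1, 0.41 for Ndufs7, 0.17 for the flavoprotein Sdha, 0.12 for Uqcrfs1, 0.44 for cytochrome c1 (Cyc1), 0.27 for Cox4i1, 0.38 for Cox5a and 0.18 for Atp5b. None of these passed the test, and in each the mice of the ages overlapped. The value of Cox4i1 rested on single mice, since it was -0.48 without aged mouse 3, -0.03 without young mouse 2 and 0.94 without young mouse 1. The largest values of all members were those of Cox7a1 (1.22, SE 0.60) and the complex I accessory subunit Ndufa11 (0.58, SE 0.31), and the lowest were those of Cox6b2 (-0.88, SE 0.33) and Ndufa6 (-0.02, SE 0.16). Exons of Ndufa11 overlap Vmac, which has over 10% of its reads. Cox7a1 had 5.65, 2.05 and 3.36 CPM in the young mice and 2.49, 12.8, 13.8 and 5.18 CPM in the aged mice. Aged mice 2 and 3 were the highest and the ages overlapped. The Cox7a1 value was 0.79 in ISC-led cells. Enterocyte genes stood on average 0.35, 1.19 and 0.36 below their 7-mouse mean (log2) in the young mice. They stood 0.95 below it in aged mouse 1 and 1.22, 0.46 and 1.16 above it in aged mice 2 to 4. The mice stood in another order for Cox7a1, and a link was not tested. In ISC-led cells alone the median over all members was 0.26 and 75 of 79 were above 0, beside 52.8% of all genes.

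Cells led by G2/M genes were compared with cycle-low cells of the same mice, to ask whether respiratory genes differ with the cell cycle in ISC-led cells. There were 463 cells led by G2/M genes, 552 led by S-phase genes and 550 low in both. Of 79 members, 16 rose in G2/M cells and 0 fell (20.3% higher, against a background of 6.06% of genes higher, 3.81% lower and 9.87% in either direction). The risers were 5 members of complex I, 2 of complex II, 1 of complex III, 2 of complex IV and 6 of complex V. The median log2 fold change of all members was 0.25, beside -0.02 over all genes, and 72 of 79 were above 0, beside 48.3% of all genes. The median over the members was 0.09, 0.40 and 0.36 in young mice 1 to 3 and 0.04, 0.28, 0.21 and 0.25 in aged mice 1 to 4. All 7 mice were thus above 0, with aged mouse 1 and young mouse 1 the lowest. Without aged mouse 3, 21 members rose and 0 fell, with a median of 0.24. The count depended on other mice too, with 22 without young mouse 1, 7 without young mouse 2, 6 without young mouse 3 and 7 without aged mouse 2, and 0 fell in each. Of all genes 6.97% rose without aged mouse 3. In the other fits named 5.99%, 4.89%, 4.69% and 4.61% of all genes rose, in the same order. Without cells near a boundary between the states 5 of 79 members rose and 0 fell, beside 5.62% of all genes that rose.

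The largest rises were those of the complex I accessory subunit Ndufa2 (log2 fold change 0.50, SE 0.11, edgeR adjusted p = 0.012), the core subunit Ndufv1 (0.49, SE 0.10, edgeR adjusted p = 0.012) and Atp5g3 (0.49, SE 0.08, edgeR adjusted p = 0.0038). Atp5g3, whose promoter stretch with the NRF1 letters is printed above, had 303, 380 and 375 CPM in G2/M cells of young mice 1 to 3 and 168, 276 and 283 CPM in their cycle-low cells. In aged mice 1 to 4 it had 393, 455, 375 and 448 CPM in G2/M cells and 334, 350, 235 and 330 CPM in cycle-low cells. It was higher in G2/M cells in 7 of 7 mice. Ndufa2 was higher in 6 of 7 mice and had 169 CPM in G2/M cells and 172 CPM in cycle-low cells of aged mouse 3. The exons of Ndufa2 overlap Tmco6, which has over 10% of its reads, so its value is uncertain. Such an overlap also makes the values of Ndufs1, Ndufa9 and Atp5f1 uncertain, which are named below for G2/M or S cells.

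The other risers were Atp5mpl (0.44), Sdhc (0.42), Atp5f1 (0.41), Ndufb3 (0.41), Ndufs1 (0.40), Cox7a2 (0.36), Ndufa9 (0.36), Atp5h (0.35), Cyc1 (0.35), Sdhb (0.34), Cox5b (0.33), Atp5g1 (0.32) and Atp5a1 (0.28), each higher in 7 of 7 mice. Among them are the iron-sulfur proteins Ndufs1 of NADH oxidation and Sdhb of succinate oxidation, and cytochrome c1. Others belong to the head (Atp5a1), the stalk (Atp5f1, Atp5h) and the c-ring (Atp5g1) of the ATP synthase. The core subunits Ndufs7 (0.33), Sdha (0.18), Uqcrfs1 (0.27), Cox5a (0.29), Cox4i1 (-0.17) and Atp5b (0.25) did not pass. The lowest values were those of Ndufa7 (-0.28) and Ndufb4 (-0.22), which did not pass. Cox6b2 had the largest value of all members, 1.96 (SE 0.69, edgeR adjusted p = 0.11). It had 11.8, 10.1 and 11.8 CPM in G2/M cells and 0.975, 2.86 and 4.24 CPM in cycle-low cells of the young mice. In aged mice 1 to 4 it had 4.76, 4.28, 1.91 and 5.25 CPM in G2/M cells against 0.721, 0.187, 11.1 and 1.66 CPM, so that aged mouse 3 alone went the other way.

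Between these states the number of cells with few detected genes differed as well. Of the cycle-low cells 117 had under 7000 detected genes, against 23 of the G2/M cells and 30 of the S cells, at similar read totals (medians 317718.5, 307558 and 322153.5). On cells with at least 7000 detected genes 55 of 79 members rose in G2/M cells and 0 fell (background 9.58% higher). The count was 24 in complex I, 2 in complex II, 6 in complex III, 10 in complex IV and 13 in complex V, with a median of 0.39 over all members. Cox6b2 then rose by 2.74 (SE 0.43, edgeR adjusted p = 0.0011). Without the mouse as a block 1 member passed in place of 16 (background 5.18% higher, 3.00% lower).

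**Figure D3:**
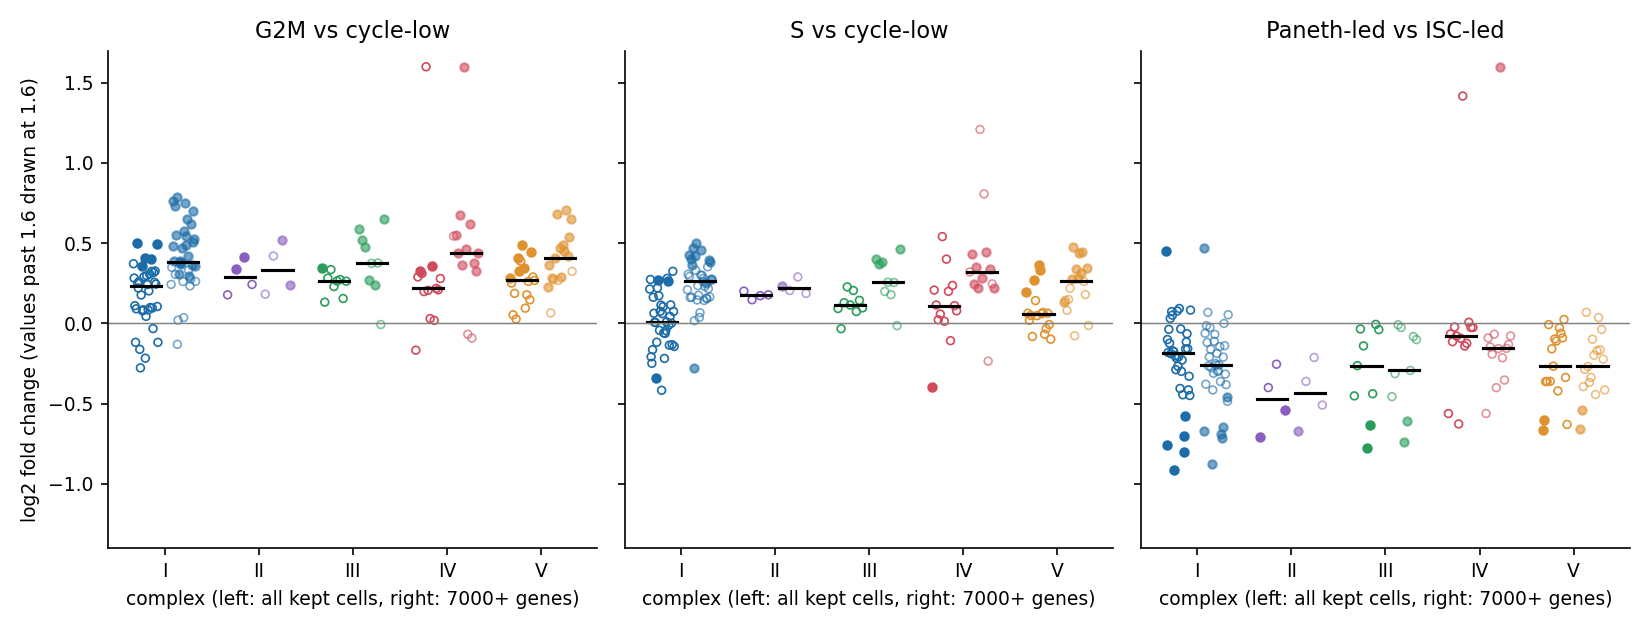
Log2 fold change of the 79 members by complex in G2/M against cycle-low cells (left), S against cycle-low cells (middle) and Paneth-led against ISC-led cells (right). Each point is a gene (filled, adjusted p under 0.05), black lines are medians, and in each pair the left column uses all kept cells and the right column cells with at least 7000 detected genes. In G2/M cells 16 members are filled on the left and 55 on the right, and values past 1.6 are drawn at 1.6.

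In S-phase cells 6 members rose and 2 fell (background 4.92% higher, 2.31% lower, 7.23% in either direction), with a median of 0.07 beside -0.02 over all genes. Of the 6 risers 4 belong to complex V. Atp5g3 rose by 0.37, Atp5h by 0.33, Atp5f1 by 0.27 and Atp5a1 by 0.20, together with Ndufa9 (0.27) of complex I, each in 7 of 7 mice. Of the 6 genes 5 also rose in G2/M cells, but both comparisons share the cycle-low cells. Without aged mouse 3, 8 members rose and 0 fell, and with any mouse left out at most 1 member fell. The risers numbered 3 without young mouse 1, 1 without young mouse 2, 1 without young mouse 3, 2 without aged mouse 2 and 3 without aged mouse 4. Of all genes 4.42%, 3.69%, 3.80%, 3.44% and 4.01% rose in these fits, each a larger share than that of the members. Over all genes 5.55% rose without aged mouse 3. Cox4i1 fell by 0.40 (SE 0.10, edgeR adjusted p = 0.042). It had 5070, 1502 and 2114 CPM in S cells against 7723, 1374 and 2245 CPM in cycle-low cells of the young mice, so young mouse 2 went the other way. In aged mice 1 to 4 it had 2078, 2011, 7120 and 1592 CPM against 3068, 2676, 13522 and 1967 CPM. On cells with at least 7000 detected genes its value turned to 0.32 (edgeR adjusted p = 0.20), and 41 of the 92 cells of high Cox4i1 were cycle-low. Ndufa6, a complex I accessory subunit, fell by 0.34 in 7 of 7 mice, and by 0.28 (edgeR adjusted p = 0.021) on cells with at least 7000 detected genes. There 33 members rose and 1 fell (background 8.28% higher), with a median of 0.26.

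Paneth-led cells were compared with ISC-led cells in the 6 mice that had at least 10 of them, that is, without young mouse 3. As a share of all reads the members took 0.666% to 1.57% in Paneth-led cells and 2.01% to 3.64% in ISC-led cells of the same mice, lower in 6 of 6. Relative to the bulk of genes, after TMM scaling, 11 members fell and 1 rose (background 5.22% lower, 5.99% higher, 11.2% in either direction), with a median of -0.18 beside -0.14 over all genes. The lower members were 5 of complex I, 2 of complex II, 2 of complex III and 2 of complex V, and 0 of 13 in complex IV passed. The median over the members was -0.71 and -0.10 in young mice 1 and 2 and -0.14, 0.26, -0.54 and -0.15 in aged mice 1 to 4, so aged mouse 2 went the other way. Without aged mouse 2, 16 members fell, and without aged mouse 3, 10 fell, beside 4.31% and 3.67% of all genes. DESeq2 scaling moved the median of all genes by over 0.1, to -0.03, where it called 10 members lower and 2 higher and the median of the members was -0.07. Over all genes its calls were 2059 higher and 1142 lower, against 1185 and 1032 in edgeR.

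The largest falls were those of Ndufa9 (-0.92, SE 0.17, edgeR adjusted p = 0.0023), Ndufs1 (-0.80, SE 0.15, edgeR adjusted p = 0.0034) and Uqcrc1 (-0.78, SE 0.15, edgeR adjusted p = 0.0033). Ndufa9 had 63.2 and 66.5 CPM in Paneth-led cells of young mice 1 and 2 and 175 and 130 CPM in their ISC-led cells. In aged mice 1 to 4 it had 77.9, 135, 93.4 and 80.2 CPM against 138, 153, 214 and 147 CPM. It was lower in 6 of 6 mice, least so in aged mouse 2. Others were Ndufa10 (-0.76), Sdha (-0.71), Atp5a1 (-0.66), Uqcrc2 (-0.63), Atp5b (-0.60), Ndufs3 (-0.58) and Sdhd (-0.54), of which Sdhd was lower in 5 of 6 mice and the rest in 6 of 6. Among them are the proteins that bind FAD (Sdha) and ATP (Atp5a1, Atp5b) and an iron-sulfur protein of the NADH arm (Ndufs1). Exons of Ndufs1, Ndufa9, Uqcrc2 and Ndufs3 overlap another gene that has over 10% of their reads. Ndufa1, a small accessory subunit on the X chromosome, was the single member that rose (0.45, SE 0.14, edgeR adjusted p = 0.048, 6 of 6 mice). Its call was lost when any of the 6 mice was left out, with values of 0.42 to 0.51.

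The 11 lower members had long transcripts. All were among the 33 members with a principal transcript of at least 1000 bases, and 0 of the 46 shorter members fell. Over all genes 928 of 12665 of the longer and 32 of 962 of the shorter ones fell. The median log2 fold change was -0.40 in the longer and -0.10 in the shorter members. Over all genes with a principal transcript the medians were -0.16 and -0.14. Across the 79 members the Spearman correlation of the log2 fold change with transcript length was -0.61, beside 0.14 across all genes. These are descriptions across genes, which are not independent. The same correlation was -0.55 in goblet-led and -0.37 in enterocyte-led cells (0.02 and -0.002 across all genes), and 0.10 in G2/M and 0.14 in S cells.

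**Figure D4:**
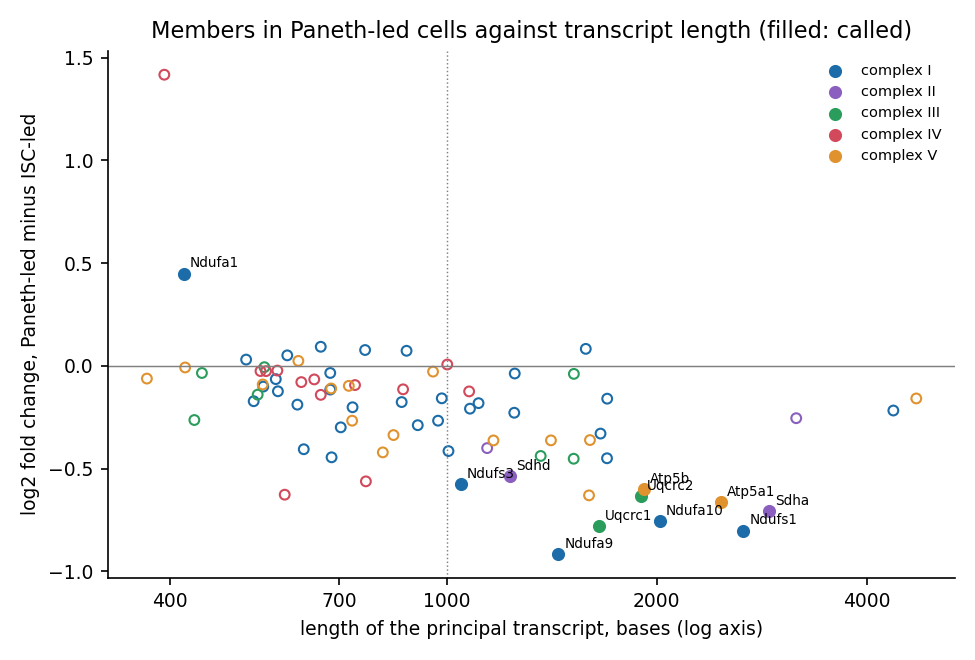
Log2 fold change of single members in Paneth-led against ISC-led cells, by the length of its principal transcript in bases (log axis), coloured by complex and filled where the adjusted p was under 0.05. The filled points below 0 all lie right of the dotted line at 1000 bases, and Ndufa1 is the single filled point above 0.

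The calls in Paneth-led cells changed with thinning and with weighting. With each cell thinned to 100000 reads, which left out the shallower cells, 4 of 6 mice remained and the median of the members was 0.02. There 4 members fell and 1 rose (background 3.11% lower and 6.08% higher). With cells weighted equally 75 fell and 1 rose, on a background of 70.8% of genes lower. On cells with at least 7000 detected genes, in 5 mice, 11 fell and 2 rose (background 6.46% lower and 7.16% higher), and the second riser was Cox7a1 (1.89, SE 0.51, edgeR adjusted p = 0.027).

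Enterocyte-led cells reached 10 cells in aged mice 3 and 4, and these 2 mice were compared with their own ISC-led cells. Of 79 members 2 rose and 0 fell (background 7.3% higher, 4.01% lower, 11.3% in either direction), and the median was 0.38 beside -0.15 over all genes. Cox7a1, the isoform of complex IV known from heart and muscle, had 200 CPM in enterocyte-led cells and 6.34 CPM in ISC-led cells of aged mouse 3. In aged mouse 4 it had 96.1 against 1.24 CPM. The log2 fold change was 5.62 (SE 0.42, edgeR adjusted p = 2.6e-37). Cox7a1 passed in 5 of 5 alternatives, with values of 5.29 to 6.02 and adjusted p of up to 0.0054. With 2 mice the size of such a p-value rests largely on variance shared across genes. Ndufa1 had 194 and 203 CPM in enterocyte-led and 88.3 and 95.6 CPM in ISC-led cells of these mice, a rise of 1.11 (SE 0.38, edgeR adjusted p = 0.032). It passed in 2 of 5 alternatives, with values of 0.68 to 1.16 and adjusted p of up to 0.16. In the other mice, which had 1 to 7 enterocyte-led cells each and entered no test, Cox7a1 stood at 91.5, 75.6 and 141 CPM of summed reads in young mice 1 to 3 and at 23.6 and 103 in aged mice 1 and 2, against 4.63, 1.74, 1.41, 2.29 and 6.43 CPM in their ISC-led cells.

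Goblet-led cells entered with young mouse 3 and aged mice 2 and 4. There 1 member rose, Cox7a1, and 0 fell (background 2.57% higher, 0.623% lower, 3.19% in either direction), with a median of 0.05 beside -0.18 over all genes. Cox7a1 had 16.7, 36.9 and 11.1 CPM in goblet-led and 1.32, 5.84 and 1.34 CPM in ISC-led cells. It was higher in 3 of 3 mice, with a log2 fold change of 3.11 (SE 0.47, edgeR adjusted p = 0.0054).

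The share of cells with a Cox7a1 read was 17.1% of ISC-led, 16.7% of tuft-led, 27.8% of Paneth-led, 47.9% of goblet-led and 86.6% of enterocyte-led cells, although enterocyte-led cells had the fewest reads (median 159220 reads, against 318309 in ISC-led, 232067 in Paneth-led and 262484.5 in goblet-led cells). Thinned to 100000 reads per cell, the shares were 10.0% in ISC-led, 19.6% in Paneth-led, 41.9% in goblet-led and 88.5% in enterocyte-led cells, with 60, 21, 5 and 15 shallower cells left out. Among Paneth-led cells aged mouse 2 had a read in 67.9% and the other mice in 10.5% to 20.5%, and aged mouse 2 held 19 of the 37 Paneth-led cells with one. The broadly expressed isoform Cox7a2 was read in 93.2% to 100% of the cells of each of these kinds. Cox6b2, an isoform known from testis, went the other way in shares pooled over mice. It was read in 26.0% of ISC-led, 13.5% of Paneth-led, 12.5% of goblet-led and 7.46% of enterocyte-led cells, and after thinning in 17.5%, 11.6%, 4.65% and 1.92%. The thinned shares rest on 1 of 52 enterocyte-led and 2 of 43 goblet-led cells. All these shares of Cox7a1 and Cox6b2 pool cells of mice that gave unequal numbers, and aged mouse 4 held 36 of the 67 enterocyte-led cells. Between ages Cox6b2 stood at -0.88. The summed level of Cox6b2 did not pass the test in Paneth-led, goblet-led or enterocyte-led cells (edgeR log2 fold changes of -0.63, -2.37 and -1.68).

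**Figure D5:**
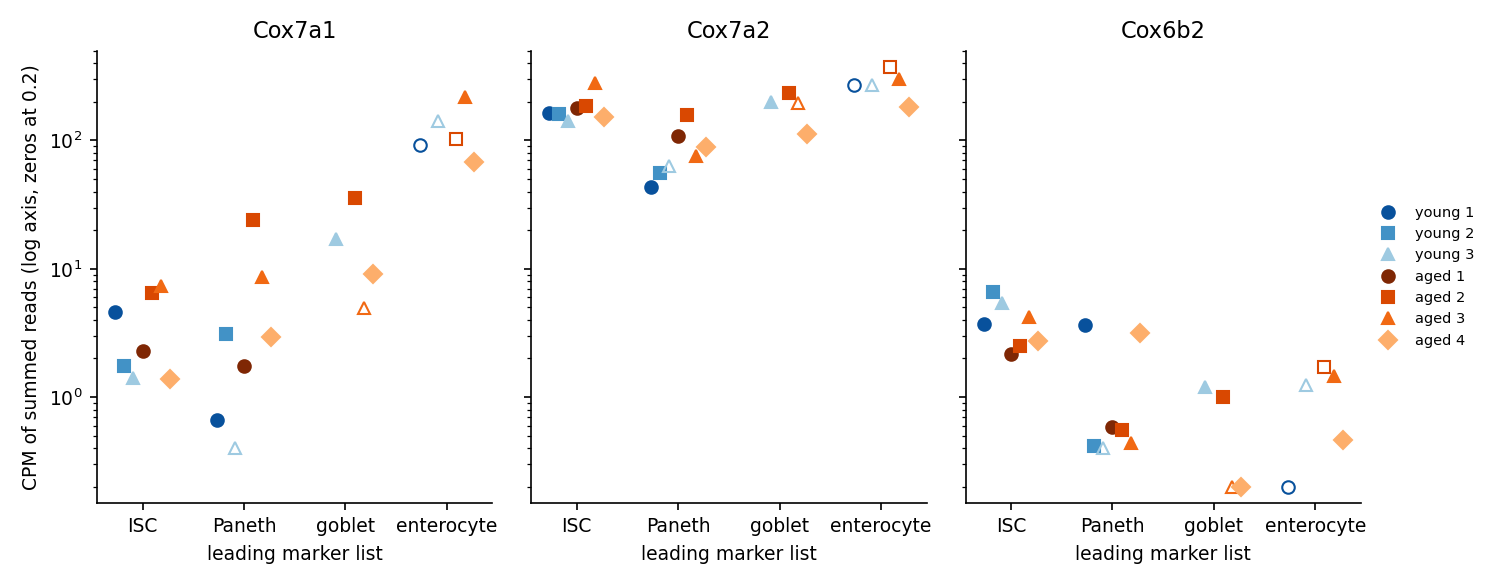
CPM of summed reads (log axis, zeros at 0.2) of Cox7a1, Cox7a2 and Cox6b2 in cells led by ISC, Paneth, goblet and enterocyte genes, with a symbol per mouse for mice with at least 5 such cells (open, under 10 cells). Cox7a1 lies between 1.39 and 7.28 in ISC-led cells and between 67.8 and 218 in the enterocyte-led cells shown, while Cox7a2 lies between 141 and 278 in the former and between 182 and 376 in the latter.

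Whether a difference between states itself differed between aged and young mice was tested as an interaction of age and state. For G2/M, S and Paneth-led cells 0 members and 0 genes passed (edgeR). At an unadjusted p under 0.05 there were 593, 666 and 607 genes, of them 2, 3 and 1 members. The median difference over the members, aged minus young, was -0.12, -0.18 and 0.19 on the log2 scale. The largest single values were those of Cox7a1 in all 3 (2.12, SE 1.14; 1.40, SE 0.78; 1.14, SE 0.99). After it came Ndufb10 (0.65) in G2/M cells, Cox6b2 (0.87) in S cells and Ndufc1 (0.90) in Paneth-led cells. The lowest were Ndufv3 (-0.61) and Cox6b2 (-0.55) in G2/M cells, Atp5s (-0.72) and Atp5k (-0.65) in S cells, and Cox7a2l (-0.66) and Ndufa8 (-0.57) in Paneth-led cells.

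Across the 6 comparisons 28 of 79 members (35.4%) passed in at least 1 and 51 in none, beside 29.4% of the 17296 genes tested in all 6. Atp5a1 and Ndufa9 passed in 3: both rose in G2/M and in S cells and fell in Paneth-led cells. Ndufs1 rose in G2/M and fell in Paneth-led cells. For each cell the mean log2(CPM + 1) over the members of a complex was taken. Within the ISC-led cells of a mouse these means moved together from cell to cell. Pearson's r between complexes I and III was 0.79 to 0.94 over the 7 mice, between I and V 0.80 to 0.93, and between II and IV 0.45 to 0.85. Each point is a cell, and both of its means come from the same library and share its depth. The mean over all members also followed the number of detected genes (r 0.41 to 0.74), so these values are given as descriptions. The mean over all members also moved with the TCA list (r 0.65 to 0.90) and the glycolysis list (0.46 to 0.73) described below. With the share of reads on mitochondrially encoded mRNAs r ran from -0.30 to 0.58, that is, without a common sign.

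The other genes of the pathway were taken as lists by role. The carrier list holds electron carriers, inhibitors, genes of ubiquinone synthesis and Mcub. In aged against young mice 0 genes of any list passed. Medians were 0.13 for assembly factors (47 tested), 0.19 for the carrier list, 0.22 for the tricarboxylic acid (TCA) cycle and pyruvate entry and 0.26 for glycolysis. They were 0.21 for mitochondrially encoded genes and -0.03 for regulators of biogenesis. The largest values, which did not pass, were those of Timmdc1 (0.55), Mcub (2.52), Mdh2 (0.39), Ldhb (-1.81), mt-Nd3 (0.42) and Perm1 (-0.34). In G2/M cells, where 6.06% of all genes rose and 3.81% fell, 3 of 17 regulators rose and 1 fell. The risers were Gabpb1 (1.14), the partner of Gabpa, Nrf1 (0.93), the factor of the NRF1 motif above, and Hcfc1 (0.50). The coactivator Ppargc1a (-1.005) fell. Of 19 TCA genes 3 rose, fumarase Fh1 (0.51), Dld (0.36) and Mdh2 (0.30), and 0 fell. Of 18 glycolytic genes Pgk1 (0.65), Tpi1 (0.60) and Ldha (0.33) rose and Aldoa (-1.39) and Hk2 (-0.62) fell. Of the 15 genes of the carrier list Pdss1 (0.59), of ubiquinone synthesis, and Etfa (0.46) rose. Tmem70 (0.36) alone rose among 47 assembly factors, a smaller share than that of all genes. Of 11 mitochondrially encoded genes mt-Nd1 (0.26) and mt-Cytb (0.23) rose.

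In S cells 3 of 19 TCA genes rose, Fh1 (0.45), Dlst (0.41) and Idh3a (0.36), beside 4.92% of all genes higher and 2.31% lower. Of 47 assembly factors 2 rose, Ndufaf2 (0.64) and Lrpprc (0.36), a smaller share than that of all genes. Pdss1 (0.42) rose in the carrier list. Of 18 glycolytic genes 4 rose, with Pgk1 (0.82), Ldha (0.73) and the lactate transporter Slc16a1 (0.52) the largest, and Aldoa fell by 0.50. No regulator and no mitochondrially encoded gene passed. In Paneth-led cells genes fell in 5 lists, beside 5.22% of all genes lower and 5.99% higher. They were 5 of 47 assembly factors (Uqcc1 -0.96, Ndufaf1 -0.84, Ecsit -0.77) and 5 of 15 genes of the carrier list (Coq8a -0.99, Pdss1 -0.97, Coq6 -0.87). Also lower were 6 of 17 regulators (Myc -0.89, Gabpb1 -0.84, Tfb2m -0.76), 5 of 19 TCA genes (Pdhx -1.02, Fh1 -0.68, Suclg2 -0.65) and 2 of 18 glycolytic genes (Pfkl -0.75, Pkm -0.54). In these 5 lists 0 genes rose. The mitochondrially encoded mt-Nd6 (0.80) and mt-Co1 (0.47) rose, 2 of 11.

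In enterocyte-led cells of the 2 aged mice the coactivator Ppargc1a rose by 2.84 and Pprc1 fell by 1.14 among 17 regulators. Over all genes 7.3% rose there and 4.01% fell. Of 17 glycolytic genes 5 rose, led by the lactate exporter Slc16a3 (4.63), Pfkp (3.64) and Gapdh (1.64). Of 19 TCA genes 3 rose, Ogdh (1.71), Mdh2 (1.61) and Dlst (1.29). Coq8a fell by 1.14 and mt-Nd6 rose by 1.26, and 0 of 47 assembly factors passed. In goblet-led cells Slc16a3 (3.69) and Pfkp (1.82) rose, Myc (-1.32) and Coq8a (-1.25) fell, and no TCA, assembly or mitochondrially encoded gene passed. The background there was 2.57% of all genes higher and 0.623% lower.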

How the data were processed

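The values deposited by the authors are unnormalised read counts, from reads mapped to GRCm38, and HISAT2 and HTSeq are named in the submitters' processing notes with versions, annotation and strand setting not given in the sources used here. Gene names came from GENCODE M21 (55230 of 55471 identifiers). A floor of 1000 detected genes kept 1836 of 1920 cells. A cell was led by the marker list with the highest mean log2(CPM + 1), and ISC-led cells were split by their S and G2/M lists, each standardised over ISC-led cells: a cell went to the higher list if that was above 0, and otherwise was cycle-low.

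Counts were summed per mouse, or per mouse and state with at least 10 cells, and tested across all genes with edgeR 4.0.16 (R 4.3.3; TMM scaling, low-count filter, quasi-likelihood F test, Benjamini-Hochberg threshold 0.05), states with the mouse as a block because both states come from the same animals. Alternatives used DESeq2 1.42.0, limma 3.58.1 and other cells, depths, weights and scalings. Scripts were tested on simulated counts. Between ages edgeR called 48.4% of genes changed 4-fold there and 5.50% of those changed 2-fold. For G2/M cells these shares were 53.2% and 3.77%, and for Paneth-led cells 36.9% and 1.12%. A count of 0 therefore does not exclude changes of this size. CPM were scaled within each comparison, so levels differ between comparisons. Near-identical copies (at least 97% over 100 bases) were searched with BLAST 2.17.0.

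The members and lists were chosen with earlier results of these data known. Named genes were the highest and lowest level of each complex, the largest changes of each comparison, core subunits, tissue isoforms, genes at the 10% limit, members without overlap between ages, and up to 3 genes of each pathway list, and others were named after their values were seen. P-values measure the spread between mice. Values of 1 member are not reported here, and it is counted in the totals only.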

Additional observations from a re-analysis of the deposited data

Results flagged for a closer look

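In groups of 4 to 10 mice, 73 sets of values of named members were searched for a mouse set apart from the rest of its group (Dixon's criterion at 95%), and 6 were found, where chance gives about 1 in 20. Aged mouse 3 gave 4 of them. It was the highest of the 4 aged mice for Ndufs1 (7.64) and Ndufv1 (7.99), both as log2(CPM + 0.5). Its difference between G2/M and cycle-low cells was the highest of 7 mice for Atp5a1 (0.59) and the lowest for Ndufa2 (-0.030). Aged mouse 2 gave the other 2, as the highest of 6 mice between Paneth-led and ISC-led cells for Ndufa10 (-0.017) and Sdhd (0.20).

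Genes of the same symbols that are no protein-coding genes in the annotation were also read in at least 10% of cells. Ndufb1-ps, a bidirectional promoter lncRNA, had a read in 94.1% of cells. Processed pseudogenes followed: Ndufs6b in 88.4%, Cox6c2 in 88.3%, Atp5k-ps2 in 75.1%, Uqcrh-ps1 in 61.2%, Ndufa11b in 34.5%, Uqcrh-ps2 in 22.0% and Ndufb4c in 10.7%. Whether these reads came from the parent genes was not tested.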

How the results depend on the processing

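No member passed between ages in any alternative, mice left out included (0 to 0). With the replicate number as a block 0 passed and the median of the members was 0.32. Deviations of same-numbered aged and young mice correlated at -0.09, 0.16 and -0.19, and pairs of other numbers at up to 0.27 (aged mouse 4 with young mouse 3). All are deviations from the mean of the same 7 mice, so they cannot settle whether the numbers pair the mice. Of 79 members, the number that passed between G2/M and cycle-low cells (16) was 28 with limma voom, 9 with no filter, 1 without the mouse as replicate block, 44 with cells thinned to 100000 reads, 50 with cells weighted equally, 5 without cells near a boundary and 55 with at least 7000 detected genes. It ran from 6 to 22 with a mouse left out, with 7 without young mouse 2, 6 without young mouse 3 and 7 without aged mouse 2. Of all genes 7.36% rose and 5.76% fell with limma voom, 12.6% and 10.5% thinned, and 13.7% and 9.06% weighted equally. In S cells (8) the number of members was 0 without the block, 18 thinned, 24 weighted equally and 34 with at least 7000 detected genes. It ran from 1 to 8, with 4 without young mouse 1, 2 without young mouse 2, 1 without young mouse 3, 5 without aged mouse 1, 2 without aged mouse 2 and 3 without aged mouse 4. Of all genes 10.4% rose and 6.51% fell thinned, and 12.9% and 4.82% weighted equally. In Paneth-led cells (12) the number of members was 5 thinned and 76 weighted equally, and 8 to 16 with a mouse left out (8 without aged mouse 4). In enterocyte-led cells (2) it was 4 with DESeq2, 1 with no filter and 1 without the block, and in goblet-led cells (1) 0 without the block. Signs turned for the median of the members in Paneth-led cells thinned (0.023) and in goblet-led cells weighted equally (-0.12) or with a mouse left out (-0.11 to 0.26), and, among members that had passed, for Cox4i1 in S cells with at least 7000 detected genes (0.32) and for Ndufa1 in Paneth-led cells weighted equally (-0.58). Values that had not passed turned as well, among them Cox4i1 between ages without young mouse 2 (-0.03) or aged mouse 3 (-0.48), in G2/M cells with at least 7000 detected genes (0.54) and in Paneth-led cells thinned (0.15), and Cox7a1 in G2/M cells in 5 of 15 alternatives. The cause was not tested. The interaction of age and state was not run for enterocyte-led and goblet-led cells, nor were enterocyte-led cells thinned, cut to 7000 detected genes or refitted without a mouse, since too few mice remained. With 3 and 4 mice, the number of mice limits the precision between ages.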
